A study of Equus caballus with 4 samples.

Results

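Expression of the myogenic transcription factors was examined in differentiating equine satellite cells (ESC) after gamma-oryzanol (GO) and hydrogen peroxide (H2O2). The factors are MYOD1, MYF5, MYF6, MYOG, PAX7, PAX3, MEF2A, MEF2C and MEF2D, and their probes were found by gene symbol or, where that failed, by the probe description. An exact match of the symbol gave 15 probes for 7 of the 9 genes. PAX7 and MEF2D were not listed under their symbols, and 1 probe for each was found through the gene name in the probe description, which makes 17 probes of the 43603 gene probes on the array. The RNA came from ESC of the semitendinosus muscle on day 3 of differentiation. GO consists of ferulic acid esters of rice bran sterols, and the treated cells were kept in 0.125 µM of it for 24 h, with H2O2 at 3 mM over the final 1 h. Control cells were grown without GO but, according to the study's methods, with the same DMSO vehicle, and the study describes them as exposed to H2O2, which the sample labels do not state. Each of the 4 arrays (replicates 1 to 4) carried treated RNA in red (Cy5) and control RNA in green (Cy3).

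The dyes were not swapped on any array, so that a difference between dyes and a difference between treatments cannot be told apart in any value below. The muscle samples came from young stallions, and 1 primary cell line was chosen for its viability and fusion index. The arrays therefore compare cultures of selected cells, and p-values measure the spread between cultures rather than between horses. The design text names 4 control replicates, while all 4 sample descriptions end the control with the same replicate tag. Whether each array had its own control culture is thus not settled, and if 1 control RNA was used throughout, the SDs and p-values leave out the spread between control cultures. All arrays lay on 1 slide, 56.7% to 61.4% of gene spots were well above background in red and 54.9% to 61.3% in green, and no gene spot was saturated. The number of arrays limits the precision.

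Satellite cells are the stem cells of skeletal muscle. PAX3 and PAX7 are paired-box factors that mark muscle progenitors and quiescent or newly activated satellite cells. MYOD1 and MYF5 are basic helix-loop-helix factors that commit a cell to the muscle lineage, MYOG drives the exit into terminal differentiation, and MYF6 is known mainly from late differentiation and mature fibres. The MEF2 proteins bind DNA through a MADS box and act together with the helix-loop-helix factors on muscle genes. In a bulk culture, a change in the number of cells of a stage and a change in RNA per cell cannot be told apart.

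Each probe is 60 bases long. A choice of the sequences is printed below, 5′ to 3′, from the array files. The MYOG pair is shown first because both probes lie on almost the same stretch of the transcript, and the capitals mark the 45 bases that they share.
MYOG-1: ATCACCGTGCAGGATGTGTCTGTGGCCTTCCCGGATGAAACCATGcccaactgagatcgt
MYOG-2: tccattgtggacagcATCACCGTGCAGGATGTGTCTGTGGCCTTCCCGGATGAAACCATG
They are placed at chr30:20042018-20042077 and chr30:20042033-20042092 of EquCab1, on the minus strand, and a common shift of both is therefore 1 observation of the transcript made with different oligonucleotides. The probes of MYF6 and MEF2D are shown because they read through the end of the protein, and the capitals mark the first stop codon in the frame that starts at base 1.
MYF6: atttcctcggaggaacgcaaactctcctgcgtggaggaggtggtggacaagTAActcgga
MEF2D: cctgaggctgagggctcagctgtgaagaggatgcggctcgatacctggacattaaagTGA
MYF6 lies at chr28:7922475-7922534, plus strand. The remaining sequences stand for a probe over an exon junction and for upstream factors, of which MYOD1-1 did not pass the threshold and PAX3 and PAX7 were not tested. MYOD1-1 lies at chr7:73781068-73781127, and MEF2C-1 covers 647 bases of the genome at chr14:78073853-78074499, so that its 60 bases cross a junction. PAX3 lies at chr6:11376663-11376722 on the minus strand.
MYOD1-1: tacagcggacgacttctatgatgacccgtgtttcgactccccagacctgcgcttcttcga
MEF2C-1: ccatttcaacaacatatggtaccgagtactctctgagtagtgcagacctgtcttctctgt
PAX3: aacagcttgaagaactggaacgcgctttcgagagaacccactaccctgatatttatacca
PAX7: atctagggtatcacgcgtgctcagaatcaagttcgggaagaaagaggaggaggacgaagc
No annotation of EquCab1 was used here, and exons and UTRs were not assigned to the probes. Probes are numbered within a gene by position. MYF5-1 to MYF5-5 begin at chr28:7932539 to chr28:7932543, each 1 base after the last, and share 56 to 59 bases, so they are close to repeat measurements of 1 site, while MYF5-6 (chr28:7932611-7932670) shares no longer run than 4 bases with them.

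MYOG, MEF2A, MEF2C, MEF2D and MYF6 were higher with GO and H2O2, each by a small amount, while MYOD1 and MYF5 passed the threshold at no probe and PAX3 and PAX7 were not well above background. All values are log2 ratios of red over green after background correction and loess normalisation, so that a positive value means more signal in treated cells. They were tested against 0 with limma, and a probe passed at a Benjamini-Hochberg adjusted p under 0.05 over the 24229 probes tested. Of the 15 probes with an exact symbol, 14 were tested, 6 passed with a higher ratio and 0 with a lower one. This count was 2 without the pairing of the channels on an array, and 0 with median centring, with the methods' t-test and without replicate 1, 3 or 4 (4 to 8 at an unadjusted p under 0.05). Over the whole array, 9.49% of tested probes passed with a higher ratio and 7.59% with a lower one. With a fold change of at least 1.3 as a further limit, 1 member probe passed (MYOG-2) and none was lower, beside 1.14% higher and 0.289% lower over the array. By gene, 4 of the 6 tested genes had a passing probe, and MEF2D, matched through its description, made this 5 of 7. The median log2 ratio of the 14 tested probes was 0.17, and 13 were positive. The probes are not independent of each other. MYF5 alone supplied 6 of the 14, and the MYOG probes, which share 45 bases, supplied 2 of the 6 that passed.

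**Figure D1:**
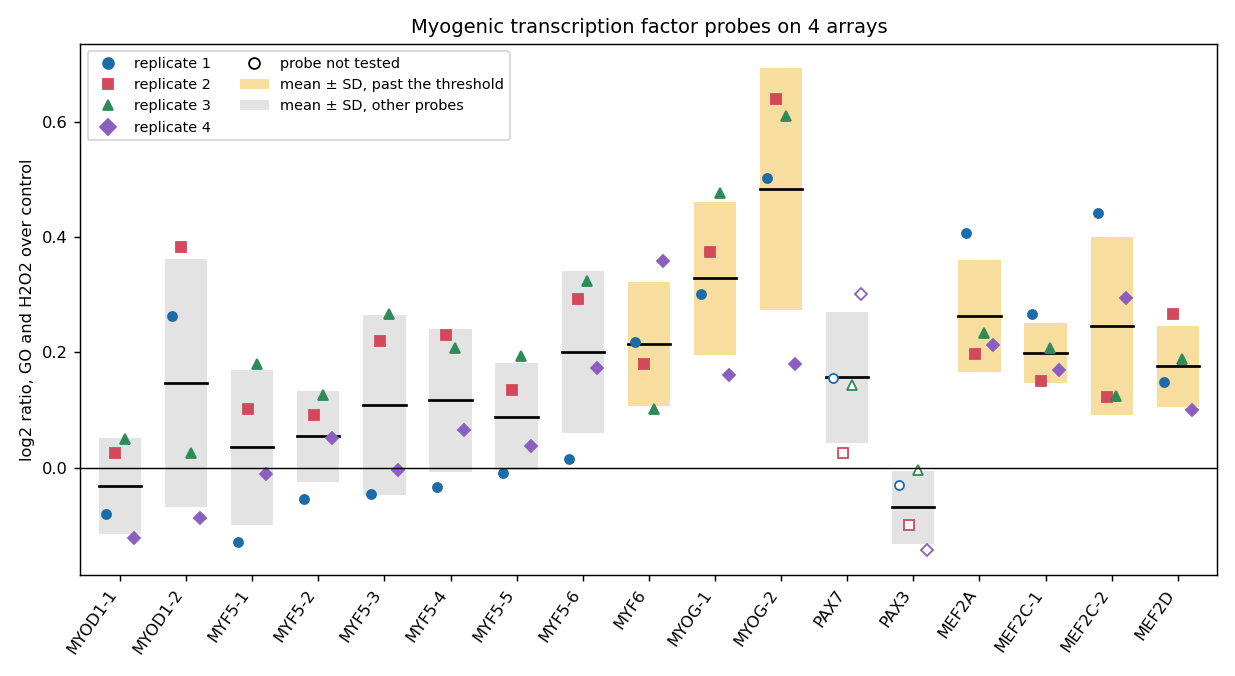
Log2 ratio of GO and H2O2 over control (vertical axis) for each of the 17 probes (horizontal axis), with a point per array, a line at the mean and a band of 1 SD. Both MYOG probes and the probes of MEF2A, MEF2C and MEF2D are above 0 on all 4 arrays. Over the whole array, 43.8% of tested probes had the same sign on all 4. The 5 overlapping MYF5 probes are below 0 in replicate 1. Open points mark PAX7 and PAX3, which were not tested.

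MYOG, the factor of terminal differentiation, had the highest mean ratios among the factors, although MYF6 was above both MYOG probes with Agilent's processed signals (0.66 against 0.40 and 0.52) and above MYOG-1 with a normexp offset of 0 (0.35 against 0.34). The red intensities of MYOG-2 as scanned were 1630, 1473, 1166 and 877 in replicates 1 to 4, and the green ones were 996, 770, 638 and 728. Red was the brighter channel on every array, and replicate 4 had both the lowest red value and the smallest gap. The normalised log2 ratios were 0.50, 0.64, 0.61 and 0.18, with a mean of 0.48 ± 0.21 (SD, n = 4, adjusted p = 0.0194), a 1.40-fold difference. MYOG-1 had red intensities of 1555, 1440, 1230 and 1079 and green intensities of 1093, 898, 726 and 885. Its log2 ratios of 0.30, 0.37, 0.48 and 0.16 gave a mean of 0.33 ± 0.13 (adjusted p = 0.0212), a 1.26-fold difference, which is under the fold limit. For both probes the lowest normalised red signal lay above the highest green one, and replicate 4 gave the lowest ratio. The normalised green signal of MYOG-1 was nearly the same on the 4 arrays, 9.91 to 9.94 on the log2 scale, while the red one reached 10.42 in replicate 3. In MYOG-2, red was 10.28, 10.33 and 10.34 in replicates 1 to 3 and 9.81 in replicate 4. Without replicate 1, 3 or 4, neither probe passed (adjusted p 0.0525 to 0.0885, mean ratios 0.28 to 0.38 for MYOG-1 and 0.44 to 0.58 for MYOG-2), and without replicate 2 both did (0.0315 and 0.0255). The fits without replicate 1, 3 and 4 had only 2, 38 and 0 passing probes on the whole array, with 6484, 7309 and 6694 at an unadjusted p under 0.05.

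MEF2A, MEF2C and MEF2D, which bind with the helix-loop-helix factors at muscle promoters, had mean ratios of 0.18 to 0.26. All 4 of their probes were above 0 on every array. MEF2B, counted among the partners below, had ratios of 0.17, -0.005, 0.05 and 0.09. Its mean of 0.08 ± 0.07 did not pass (adjusted p = 0.247). MEF2A (chr1:102349413-102349472) had log2 ratios of 0.41, 0.20, 0.23 and 0.21, with a mean of 0.26 ± 0.10 (adjusted p = 0.0233). Its red intensities were 696, 627, 410 and 530 beside 467, 465, 304 and 446 in green. Red exceeded green within every array, although the ranges of the channels across arrays overlapped, with replicate 3 the dimmest in both. MEF2C was read at separate sites that share no run over 6 bases. MEF2C-1 had red intensities of 305, 256, 226 and 239 beside green intensities of 231, 216, 180 and 220. Its ratios of 0.27, 0.15, 0.21 and 0.17 gave a mean of 0.20 ± 0.05 (adjusted p = 0.0274), the smallest SD of the tested member probes, and its normalised channels did not overlap. MEF2C-2 (chr14:78083257-78083316) had ratios of 0.44, 0.12, 0.12 and 0.30 and a mean of 0.25 ± 0.15 (adjusted p = 0.0439). The probes of MEF2C thus had similar means, with a larger spread at MEF2C-2, where replicate 1 was highest.

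MEF2D, which EquCab1 has on an unplaced stretch at chrUn:84711629-84712021, had red intensities of 218, 206, 160 and 169 beside 188, 170, 154 and 180. Replicate 4 was brighter in green before normalisation. The normalised ratios of 0.15, 0.27, 0.19 and 0.10 were all positive, with a mean of 0.18 ± 0.07 (adjusted p = 0.0405) and no overlap of the normalised channels. Leaving out 1 array at a time kept the means of the MEF2A, MEF2C and MEF2D probes positive, between 0.15 and 0.29. Without replicate 2, both MEF2C probes and MEF2A still passed (0.0273 to 0.0384) and MEF2D did not (0.0833). Without replicate 1, 3 or 4 none of these probes passed (0.0664 to 0.15). With Agilent's own processed signals, MEF2A (0.25, adjusted p = 0.0836) and MEF2C-2 (0.37, adjusted p = 0.0606) did not pass, while MEF2C-1 (0.34, 0.0292) and MEF2D (0.35, 0.0335) did, with ratios over 1.5 times those above.

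**Figure D2:**
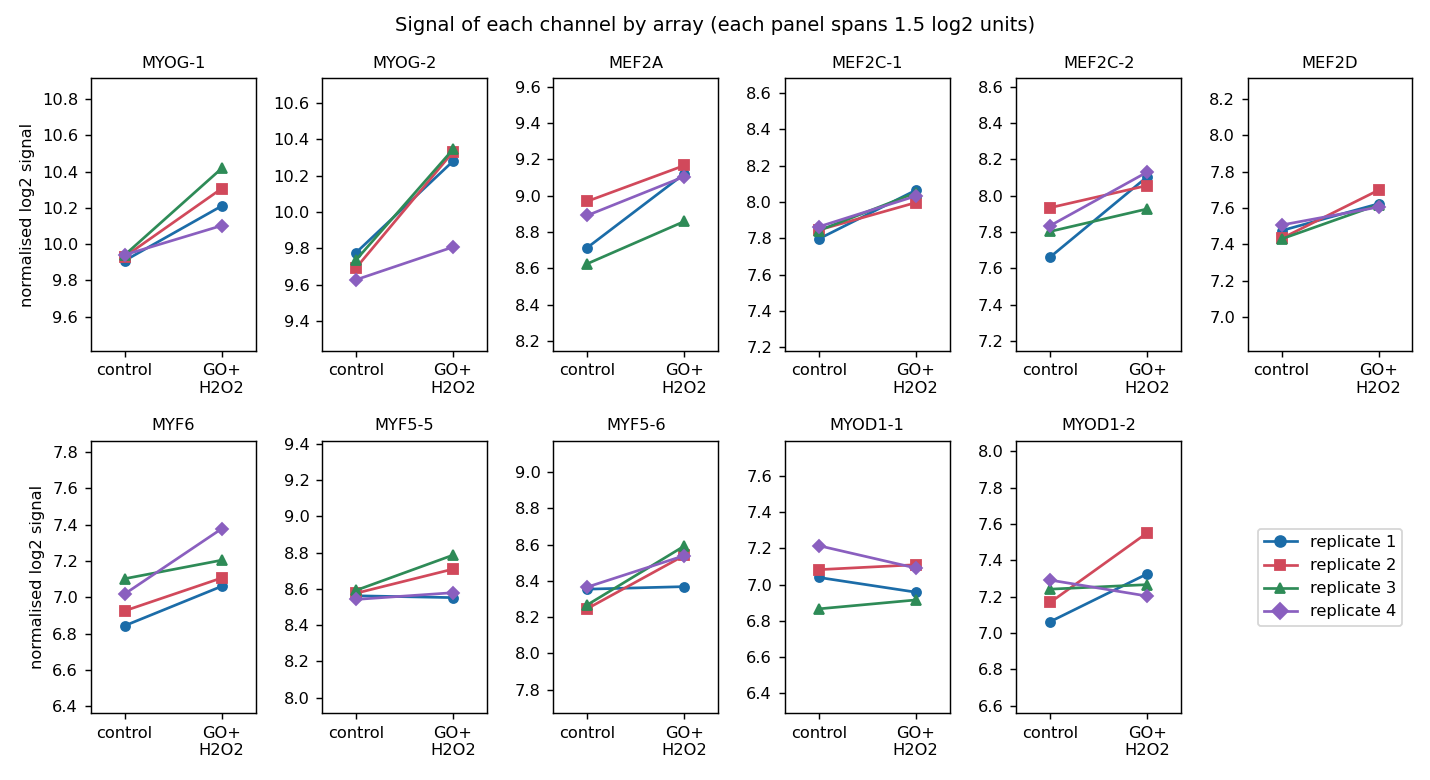
Normalised log2 signal (vertical axis) of the control and of the treated channel for 11 probes, with a line joining the channels of an array. The panels cover equal ranges but start at different levels, since probes are not comparable in brightness. The lines rise in all panels of MYOG, MEF2A, MEF2C, MEF2D and MYF6, and their directions differ between arrays in the MYOD1 panels and in MYF5-5.

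MYF6, the factor known from mature fibres, was dim. Its red intensities were 130, 121, 121 and 141, and its green intensities 114, 128, 129 and 137. Before normalisation red was the brighter channel only in replicates 1 and 4, and the ratios of replicates 2 and 3 were positive only after processing. The log2 ratios were 0.22, 0.18, 0.10 and 0.36, with a mean of 0.21 ± 0.11 (adjusted p = 0.0376), and the normalised channels overlapped. The value moved with the processing. Without background correction, but with loess, the mean was again 0.21 (adjusted p = 0.0406), and with Agilent's processed signals it was 0.66 (adjusted p = 0.0234). MYF6 passed in none of the fits that left out 1 array (0.0512 to 0.129).

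The commitment factors MYOD1 and MYF5 did not pass at any probe. MYOD1-1 had red intensities of 112, 121, 92.7 and 112 and green intensities of 121, 127, 104 and 143. Its log2 ratios were -0.08, 0.03, 0.05 and -0.12, on both sides of 0, with a mean of -0.03 ± 0.08 (adjusted p = 0.642, 95% interval of the mean -0.14 to 0.08). MYOD1-2 (chr7:73782821-73782880) had ratios of 0.26, 0.38, 0.03 and -0.09, a mean of 0.15 ± 0.22 (adjusted p = 0.234) and an interval of -0.05 to 0.34. The probes share no more than 7 bases, and replicate 4 was lowest at both. Their signs differed, and the upper limits of their intervals were 0.08 and 0.34. Without background correction the sign of MYOD1-1 turned (0.08), and with Agilent's processed signals its mean was -0.15 (adjusted p = 0.0745). Without replicate 2 the mean of MYOD1-2 was 0.07 (adjusted p = 0.544).

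The overlapping MYF5 probes had mean ratios of 0.04, 0.05, 0.11, 0.12 and 0.09 from MYF5-1 to MYF5-5, with adjusted p from 0.174 to 0.69. Each of these probes was negative in replicate 1 and positive in replicate 2, and their scanned intensities ran from 262 to 452 in red and from 202 to 420 in green. MYF5-6, which lies beside them, had red intensities of 392, 391, 344 and 351 and green intensities of 353, 288, 246 and 313. Its log2 ratios of 0.01, 0.29, 0.32 and 0.17 were all positive, with a mean of 0.20 ± 0.14, an interval of 0.06 to 0.34 and an adjusted p of 0.0612, just outside the threshold. The normalised channels of MYF5-6 did not overlap, and replicate 1 was again the lowest. Averaged over its 6 probes, MYF5 had a mean ratio of 0.10 (adjusted p = 0.192). A p that misses the threshold does not show that MYF5 was equal in both channels. It was not tested whether the ratios of these 7 genes differed from each other.

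PAX3 and PAX7, the factors of progenitors and quiescent cells, were not well above background on any array in either channel and were not tested. PAX3 had red intensities of 67 to 73 and green intensities of 88 to 106. The PAX7 probe (chrUn:310653135-310653548, minus strand) had red intensities of 56 to 59 and green intensities of 68 to 82. These probes therefore give only an upper bound, and their ratios, -0.14 to -0.004 for PAX3 and 0.02 to 0.30 for PAX7, carry no order. This does not show that the transcripts were absent.

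**Figure D3:**
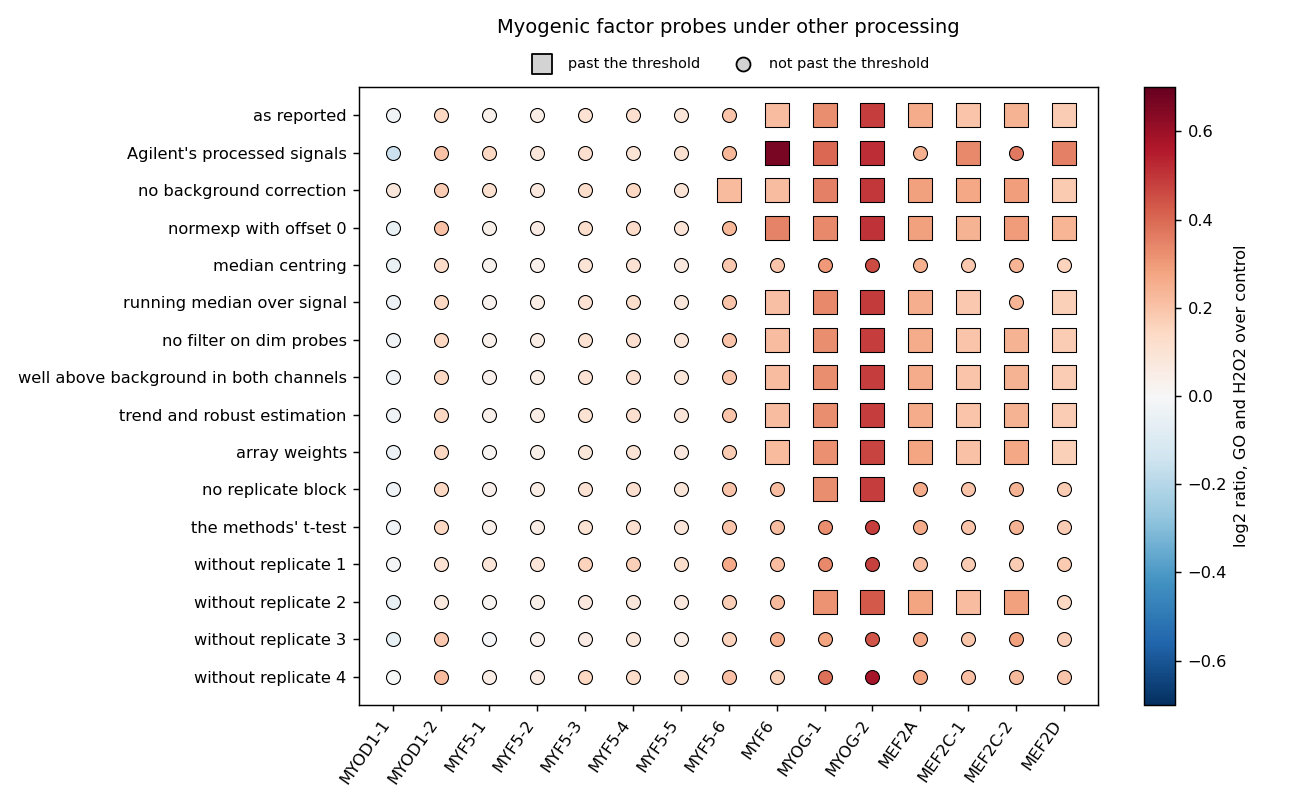
Mean log2 ratio (colour) of the 15 tested probes (horizontal axis) under each way of processing the arrays (vertical axis), where a square marks a probe past the threshold. MYOG-1 and MYOG-2 pass under 10 of the 12 ways that use all 4 arrays, counting the reported one, and no probe passes with median centring, with the methods' t-test, or without replicate 1, 3 or 4.

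Genes that act with the factors were described from lists chosen with earlier results of these data known, with 1 probe per gene, the brightest tested. Among all 9250 named genes counted in this way, 8.81% passed with a higher ratio and 8.63% with a lower one, with a median log2 ratio of -0.01. On the same basis 5 of the 7 tested factors were higher, with a median of 0.20. Of 17 partners of the factors, 10 were tested, 1 was higher and 0 lower, and the median was 0.09. The gene that rose was TEAD4, a factor that binds muscle promoters, with ratios of 0.36, 0.23, 0.04 and 0.23 (mean 0.21 ± 0.13, adjusted p = 0.0467). The E proteins, with which the helix-loop-helix factors dimerise, did not pass at their brightest probes. Their means were 0.08 ± 0.06 for TCF3, 0.13 ± 0.07 for TCF4 and -0.05 ± 0.05 for TCF12. Of the 4 TCF4 probes, 1 passed, and they differed in sign, with 3 higher and 1 lower. Of 22 coregulators, 15 were tested, 1 was higher and 0 lower, with a median of -0.001. That gene was SETD7, a lysine methyltransferase, with a mean of 0.19 ± 0.04 (adjusted p = 0.0292), and 1 of its 2 probes passed.

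Among 17 inhibitors of the factors, 10 were tested, of which 1 was higher and 1 lower. BHLHE40, a helix-loop-helix repressor, had log2 ratios of 0.34, 0.44, 0.52 and 0.62 and a mean of 0.48 ± 0.12 (adjusted p = 0.0125). The ID proteins bind the partners of MYOD1 and keep them from DNA. ID2 had ratios of -0.26, -0.08, -0.14 and -0.29 and fell by 0.19 on average (SD 0.10, adjusted p = 0.0449), negative on every array and at all 3 of its probes, of which 2 passed. ID3 had ratios of -0.12, 0.33, -0.39 and -0.24, and its mean of -0.10 ± 0.31 did not pass (adjusted p = 0.527). ID1 and TWIST1 were not found under these symbols. The inhibitors thus included members past the threshold in both directions, and the median of the list was -0.02.

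Under 44 symbols of muscle genes known as targets of the factors, 28 genes were tested. Of these, 15 were higher and 0 lower, with a median log2 ratio of 0.24. Muscle genes were already known to be higher in these data, so that this count is no independent support for the values of the factors. ACTC1, a sarcomeric actin, had a mean of 0.44 ± 0.07 (adjusted p = 0.0114). The myosin light chains MYL1 and MYL4 had means of 0.40 ± 0.06 (0.0124) and 0.41 ± 0.08 (0.0125), and the fast troponin TNNT3 had 0.44 ± 0.10 (0.0125). CKM, the muscle creatine kinase, had ratios of 0.63, 0.23, 0.33 and 0.16 and a mean of 0.33 ± 0.21 (adjusted p = 0.0372). Other targets did not pass, among them CHRNA1, a subunit of the acetylcholine receptor (0.02 ± 0.21, 0.854), and DES, the muscle intermediate filament (0.02 ± 0.14, 0.809). CDH15 was not found under its symbol. The median of the target list was 0.33, 0.09, 0.26 and 0.18 in replicates 1 to 4 and was lowest in replicate 2, whereas MYOG was lowest in replicate 4.

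**Figure D4:**
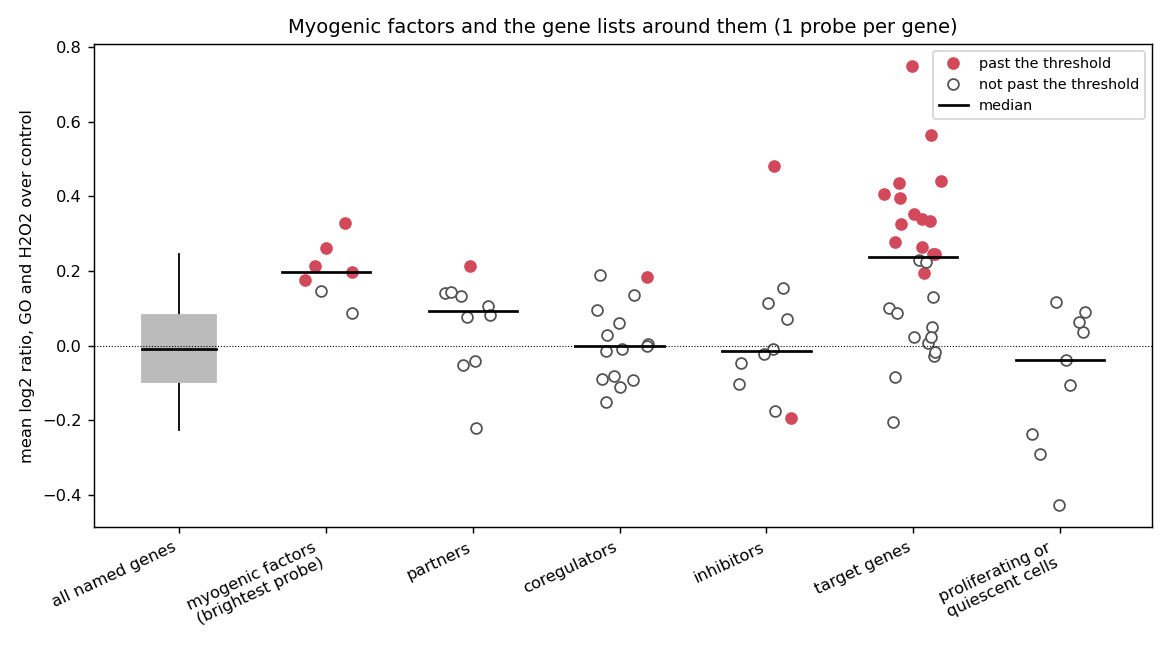
Mean log2 ratio of GO and H2O2 over control (vertical axis) for the myogenic factors and for the genes of each list (horizontal axis), with a point per gene, filled where it passed the threshold, and a line at the median. The grey box spans the middle of all 9250 named genes from the 25th to the 75th percentile and its line from the 5th to the 95th. Target genes have a median of 0.24, and 15 of 28 points are filled.

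Of 19 genes of proliferating or quiescent satellite cells, 9 were tested and none passed with limma (0 higher and 0 lower), with a median ratio of -0.04. The genes named next were chosen after their values were seen. The cell cycle genes CDK1, with ratios of -0.42, 0.40, -0.92 and -0.78, and MKI67, with -0.26, 0.42, -0.58 and -0.53, were positive only in replicate 2. CCNB1 followed the same order, with -0.30, 0.57, -0.92 and -0.52, and PCNA was also positive only in replicate 2. Other genes of the list went another way, such as FGFR4 with 0.01, 0.10, 0.20 and 0.15. Of the 9 means, 4 were positive and 5 negative. The arrays were thus not alike in the cell cycle genes. Replicate 2, in which those were positive, had the lowest median of the target genes, while MYOG in replicate 2 was at 0.37 and 0.64. The part of the cell cycle genes in the values of the factors was not tested.

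The genes whose ratios over the 4 arrays lay nearest to those of each factor were found by the root mean square difference, among 8779 other named genes with 1 probe each. Nearest to MYOG were ISG20 (0.03), ASXL1 (0.03) and OTUD4 (0.05). MEF2A was nearest to GGA2, CHD7 and CASQ1, the calcium-binding protein of the muscle reticulum, with differences of 0.03 each. For MEF2C they were CD82, SORT1 and TMEM120A, at 0.01 to 0.02, for MEF2D BAZ1B, YIF1B and G3BP1, and for MYF6 HTT, SLC39A3 and CAMK2A, at 0.02 to 0.03. With 4 arrays and many genes some patterns lie close by construction, and these names are a description only.

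The labelled cell type was checked against markers. Of the muscle lineage markers on the array, 6 of 7 were well above background in both channels on all arrays, with PAX7 the exception, and all 7 myotube markers were. MYOD1, MYF5, MYOG and PAX7 on the lineage list are themselves among the factors, so the list is no separate check of them. The other lineage markers on the array, DES, CHRNA1 and NCAM1, were all well above background. The summed normalised signal of the lineage markers was 29400 to 30200 in red and 26500 to 31700 in green, so the channels overlapped. For the myotube markers it was 171000 to 204000 in red and 148000 to 161000 in green. Of the 7 myotube markers, 5 were higher past the threshold. All 7 were also counted among the target genes above, with the same probes, so this is not a further result. Of the 6 tested muscle lineage markers, only MYOG and NCAM1 were higher and 0 were lower. Among all 9250 named genes, taken by their brightest tested probe, 8.81% were higher. Fibroblast markers were also present, 5 of 7, and 5 were tested. Their list had a summed normalised signal of 175000 to 198000 in red and 150000 to 181000 in green. LUM, a matrix proteoglycan, was lower at all 6 of its probes, with ratios of -0.55, -0.34, -0.36 and -0.47 at the brightest (mean -0.43 ± 0.10, adjusted p = 0.0131). THY1 was higher (0.28 ± 0.14, adjusted p = 0.0290), and the other 3 did not pass. None of the adipocyte (0 of 4), endothelial (0 of 5) or Schwann cell markers (0 of 4) reached this level in both channels. Of the markers of smooth muscle or pericytes 2 of 4 did, of immune cells 2 of 4, and of heart muscle 1 of 2. The markers found were ACTA2 and CSPG4 for the first list, CD14 and CD68 for the second and TNNI3 for the third, while RGS5, CD3E, CSF1R and GATA4 were not above background on any array. CD14 was lower (-0.17 ± 0.06, adjusted p = 0.0385) and TNNI3 higher (0.21 ± 0.13, adjusted p = 0.0460), while ACTA2, CSPG4 and CD68 did not pass. The part of other cell types in the ratios of the factors was not tested.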

How the data were processed

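Gene expression was measured on 4 two-colour Agilent horse arrays. Deposited intensity values are the authors' scanner output from Feature Extraction 10.10.1.1, per the file headers, with mean and local background signals for each dye. The authors' deposited log10 ratio, also in the series matrix, is that of background-subtracted, dye-normalised signals, and both sources were identical (largest difference 0).

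Mean intensities were corrected with normexp (offset 50) and normalised by loess, with control spots at weight 0. Control and outlier-flagged spots (7 to 16 per array) were left out, and spots of a probe were averaged. Probes well above background on all 4 arrays in red or in green were tested (24229, or 55.6%). Log2 ratios were tested against 0 with limma 3.58.1 (R 4.3.3), two-sided, with Benjamini-Hochberg adjustment, and the procedure was tested on simulated data. Errors are SDs over 4 arrays, and intervals are 95% moderated intervals, unadjusted. Each array pairs its channels, and the fit without this pairing was an alternative. The others were background correction, normalisation, filter, variance estimate, array weights, the methods' t-test, the mean over a gene's probes and leaving out each array.

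Members and lists were chosen with earlier results of these data known. Every member probe is named. From each list, up to 4 passing genes with the smallest p are named, with CHRNA1, DES, CDH15, CKM, ID1, ID2, ID3 and TWIST1, and for each passing member the 3 genes nearest in ratio. TCF3, TCF4, TCF12 and MEF2B were named for their role. Symbols were those of the files, with 338 probes named through RefSeq accessions and 3 through descriptions. Positions are in EquCab1, per the file headers.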

Additional observations from a re-analysis of the deposited data

How the results depend on the processing

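Of 240 values of single probes under other settings, 190 kept their direction and side of the threshold, 47 kept the direction without passing, 1 passed newly (MYF5-6 without background correction, 0.22, adjusted p = 0.0436) and 2 changed sign: MYF5-1 without replicate 3 (-0.013, in a range of -0.013 to 0.09 over the arrays left out) and MYOD1-1 without background correction (0.077). The 240 include probes that had not passed as reported, and count the series matrix values as a setting of their own. All 47 came from the 7 passing probes. Of 16 settings, MYOG-1 and MYOG-2 kept their side in 11, MEF2C-1 in 10, MEF2D and MYF6 in 9, MEF2A in 8 and MEF2C-2 in 7. The 6 passing member probes with an exact symbol became 0 with median centring (4 at an unadjusted p under 0.05) and 0 with the methods' t-test (6). They became 2, MYOG-1 and MYOG-2, without the replicate block that pairs the channels of an array, and 0 to 5 when 1 array was left out (6 to 8 unadjusted). Over all probes, 4137 passed, against 12 with median centring (1571 unadjusted), 594 without the block, 5 with the methods' t-test (6930 unadjusted) and 0 to 3898 with 1 array left out (0 without replicate 4, with 6694 unadjusted). With the fold limit 345 passed, against 1102 with the signals processed by Agilent's software, 1102 with the series matrix values, which are the same ratios, 660 with offset 0, 12 with median centring, 210 without the block, 1 with the methods' t-test and 0 to 694 with 1 array left out. The share of passing probes that were higher was 55.6%, but 100% of 12 with median centring, 63.8% of 594 without the block and 40% of 5 with the methods' t-test. Without replicate 1 it was 100% of 2 probes and without replicate 3 89.5% of 38. Shares of so few probes say little about direction. The cause was not tested. Dim probes (MYF6, MYOD1, PAX3, PAX7) are limited by signal over background.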
